A study of Homo sapiens with 2 samples.

Results

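Chemokines are small secreted proteins that attract cells, and chemokine receptors are the membrane proteins through which cells sense them. The genes described here were all probe sets of the array whose single platform gene symbol began with CCL, CXCL, XCL or CX3C, or was CCR or CXCR followed by a digit. This name rule gave 64 probe sets for 47 genes, out of 19065 probe sets with 1 symbol for 11963 genes; 32 of the 47 genes encode ligands and 15 encode receptors. Total RNA came from L-540, an established Hodgkin lymphoma cell line usually described as of T-cell lineage. One culture was left untreated and the other was treated with vorinostat, a hydroxamate inhibitor of histone deacetylases, at a dose and for a time that the labels do not give. Each of these 2 groups held 1 Affymetrix HG_U133A array and so had no replicate, and the differences below carry no test and no error between cultures. The comparison asks which transcripts of these lymphoma cells differ after exposure to the inhibitor.

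The names of chemokines follow the spacing of the first cysteines of the protein: adjacent in CC ligands, separated by a single residue in CXC ligands, farther apart in CX3CL1, with only part of the set kept in XC ligands. Their receptors cross the membrane repeatedly as helices and signal mainly through inhibitory G proteins to the cytoskeleton. In Hodgkin lymphoma the tumour cells are few among many infiltrating leukocytes, and chemokines made by the tumour cells, such as CCL17, CCL22 and CCL5, are known as attractants of T cells, eosinophils and mast cells.

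Most of these genes gave no signal above the level set as the floor in either culture. That level, 68.9 units of MAS5 signal (a linear intensity), is the 40th percentile of the signals of both arrays, controls left out. Of the 64 probe sets, 11 lay above it on at least 1 array, against 65.3% of all probe sets with 1 symbol. Counted as genes, 8 of 47 were measured, against 69.2% of all named genes. The measured genes were the receptor genes CXCR4, CCR7 and CCR1 and the ligand genes CCL5, CXCL9, CXCL10, CXCL12 and CX3CL1. By class these were 1 of 18 CC ligand genes, 3 of 12 CXC ligand genes, the 1 CX3C ligand gene, 2 of 8 CC receptor genes and 1 of 6 CXC receptor genes. The 1 XC ligand gene and the 1 CX3C receptor gene were not above the floor. A further 4 probe sets carry several symbols that include such a name and were not members.

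**Figure D1:**
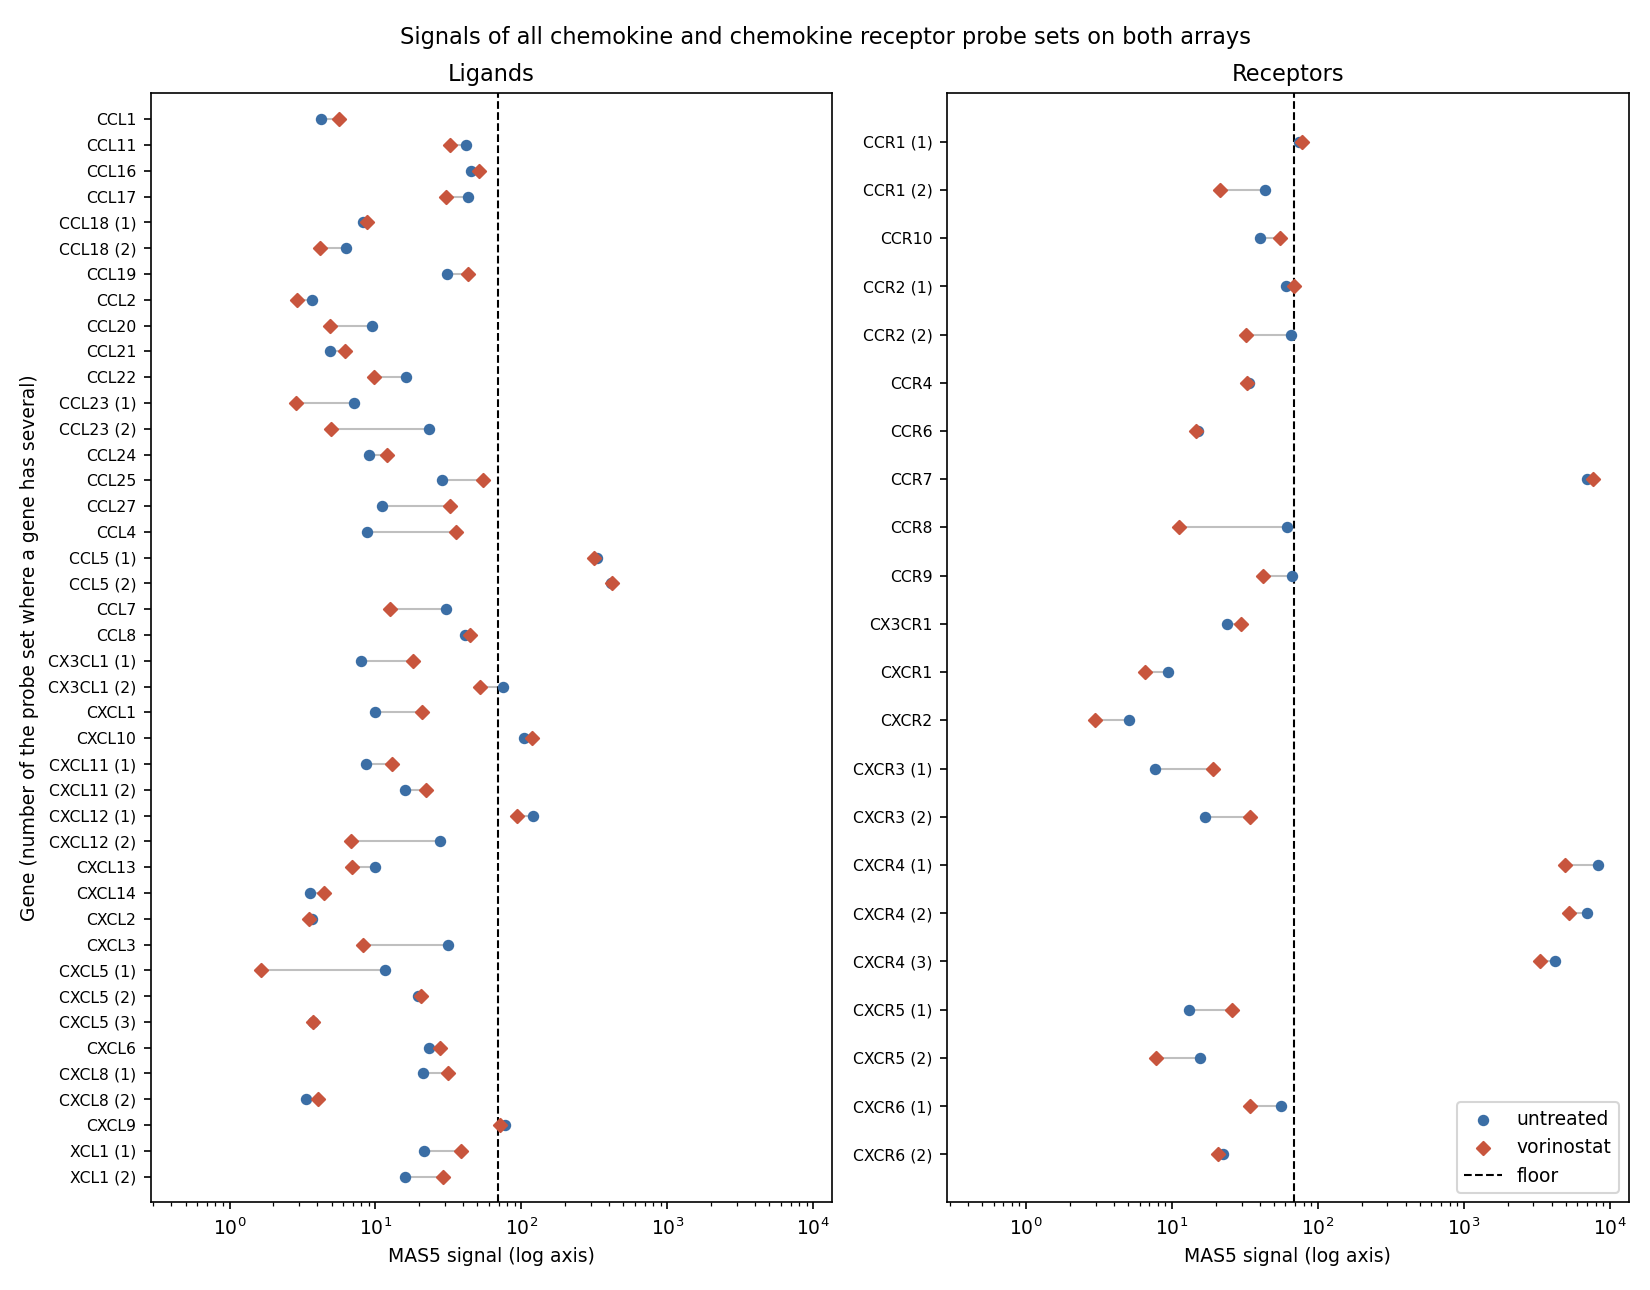
MAS5 signal (log axis) of each of the 64 probe sets on the untreated array (circles) and the vorinostat array (diamonds), ligands left and receptors right, with the floor of 68.9 as a dashed line; a number in brackets counts the probe sets of a gene. The CXCR4, CCR7 and CCL5 probe sets stand clear of the floor on both arrays, and 53 probe sets lie under it on both.

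No measured gene of the group was 2-fold apart: 0 of 8 passed that size upward in the treated culture and 0 downward, against 3.77% and 5.12% of all 8277 measured genes. With as few as 8 genes, counts of 0 lie near those shares. The log2 ratio of treated over untreated had a median of -0.041 over the 8 genes and of -0.038 over all measured genes. The first value is the midpoint of CCL5 and of CX3CL1, which was above the floor in untreated cells alone and enters at a bound, and it took a positive sign, 0.032 to 0.078, under 6 of 9 alternatives. Nothing is read from it. By any size, 4 of the 8 were lower, against 53% of all. The ratios ran from -0.74 for CXCR4 to 0.19 for CXCL10 on the log2 scale. At a threshold of 1.5-fold, 1 of the 8 was lower, CXCR4, and 0 were higher, against 15.5% and 12.7% of all measured genes. That count of 1 rests on the brightest CXCR4 probe set: with the median over probe sets (a log2 ratio of -0.42) or without shared-sequence probe sets (-0.34), CXCR4 was within 1.5-fold. These counts cover only the genes that passed the floor; the 39 others are described by their signals further on.

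**Figure D2:**
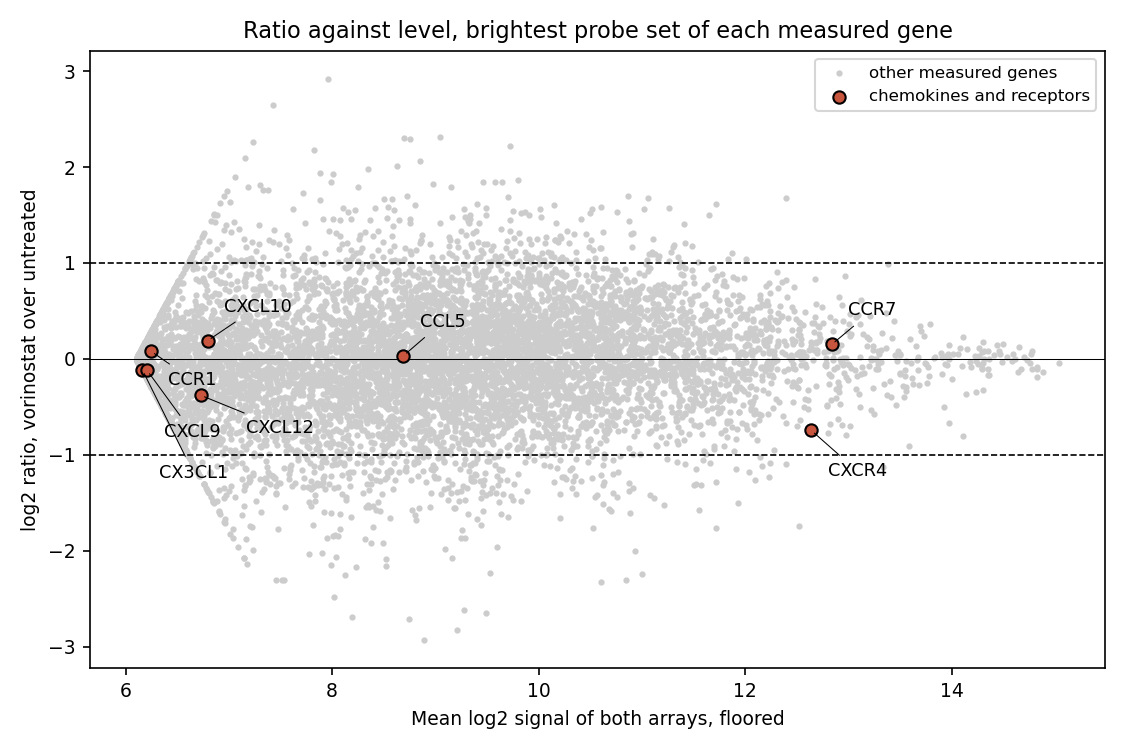
The log2 ratio of vorinostat over untreated for the brightest probe set of each measured gene, against its mean log2 signal after flooring; the 8 chemokine and receptor genes are filled and labelled, the other genes are grey, and dashed lines mark 2-fold. The 8 genes lie between -0.74 and 0.19, inside the dashed lines; the slanted edges at the left come from the floor.

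Promoter sequences are shown for the receptor gene with the lowest ratio and for the pair of neighbouring interferon-inducible ligand genes, which had a letter match in common. RefSeq promoters were held for 35 of the 47 genes, and the 250 bases before the annotated start were searched on both strands for GGGANNNNCC, as in NF-kB sites, GAAANNGAAA, as in interferon response elements, TTCNNNGAA, as in STAT sites, GGGCGG, the GC box, and TATAAA, the TATA box. Runs in capitals mark any of these matches, which may overlap, and each sequence runs 5′ to 3′ on the minus strand of GRCh38.p14, at chr2:136118150-136118399 for CXCR4, chr4:76023498-76023747 for CXCL10 and chr4:76007510-76007759 for CXCL9.
CXCR4: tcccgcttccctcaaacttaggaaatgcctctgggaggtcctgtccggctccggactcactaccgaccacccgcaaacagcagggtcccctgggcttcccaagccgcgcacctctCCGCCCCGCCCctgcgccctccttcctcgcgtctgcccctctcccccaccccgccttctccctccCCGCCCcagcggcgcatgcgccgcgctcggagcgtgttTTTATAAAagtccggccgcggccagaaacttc
CXCL10: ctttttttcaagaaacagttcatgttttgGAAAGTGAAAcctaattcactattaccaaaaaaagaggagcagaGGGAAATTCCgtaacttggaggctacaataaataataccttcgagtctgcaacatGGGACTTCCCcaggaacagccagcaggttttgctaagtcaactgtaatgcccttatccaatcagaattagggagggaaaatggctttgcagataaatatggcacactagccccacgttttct
CXCL9: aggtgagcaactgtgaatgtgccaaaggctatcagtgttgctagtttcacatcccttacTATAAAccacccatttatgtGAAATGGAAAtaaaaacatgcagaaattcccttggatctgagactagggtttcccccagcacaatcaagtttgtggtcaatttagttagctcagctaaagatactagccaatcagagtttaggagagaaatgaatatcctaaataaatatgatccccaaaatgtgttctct

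The CXCR4 promoter held matches to the GC box and the TATA box. CXCL10 and CXCL9 each held 1 match to GAAANNGAAA, which 3 of the 35 searched promoters (8.57%) and 3.07% of 27305 RefSeq promoters of the same length hold; the third was that of CCR6, a receptor gene under the floor. CXCL10 also held 2 matches to GGGANNNNCC. That motif was found in 14 of the 35 promoters (40%, against 22.1% of all), in 13 of 30 from unmeasured genes and in 1 of 5 from measured ones. TTCNNNGAA was found in 7 of 35 (20%, against 6.78%), TATAAA in 11 (31.4%, against 11.1%) and GGGCGG in 9 (25.7%, against 42.3%). A match describes letters in a window of DNA; binding was not measured here.

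CXCR4 encodes the receptor for CXCL12 and guides leukocytes to bone marrow and lymphoid tissue. The gene lies at chr2:136114349-136118149 (GRCh38.p14, minus strand) and has 3 probe sets, all above the floor on both arrays. The first went from 8262 in untreated to 4931 in treated cells (1.68-fold lower), the second from 7005 to 5245 (1.34-fold lower) and the third from 4218 to 3330 (1.27-fold lower). All 3 probe sets were lower in the treated culture, and none reached 2-fold. Of 603 genes with 3 probe sets above the floor on both arrays, 37% had all 3 lower. The mean log2 ratio of the CXCR4 probe sets was -0.50 ± 0.21 (SD over 3 probe sets, 1 culture each). Probe sets of 1 gene differed by a root mean square SD of 0.31 over 2428 genes with at least 2, a spread within these arrays that leaves out any spread between cultures. The 2 brighter probe sets have suffixes that mark possible shared sequence, and without such probe sets the log2 ratio was -0.34.

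CCR7 encodes the receptor that brings T cells and dendritic cells into lymph nodes, and it is well known from Hodgkin cells. Its single probe set, for the gene at chr17:40553769-40565472, had a signal of 6949 in untreated and 7713 in treated cells. The log2 ratio was 0.15 (1.11-fold higher). Among 847 probe sets in a band of like signals, from 2755 to 11020, ratios from the 10th to the 90th percentile ran from -0.58 to 0.54, and CCR7 lay inside that range. In the same band the brightest CXCR4 probe set lay below the 10th percentile and the other two lay inside the range. Neither ligand of CCR7 was above the floor: CCL19 had signals of 30.7 and 43.2, and CCL21 had 4.91 and 6.23, untreated first.

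CCR1, a receptor for CCL5 and several other CC ligands, was close to the floor. Its brighter probe set had signals of 73.8 and 78.1, and its other probe set 43.2 and 21.4, under the floor on both arrays. The brighter one had a log2 ratio of 0.08. CCR2, the receptor for CCL2, had a highest signal of 68.7, just under the floor, and CCR9, which guides cells to the gut, had one of 66.6. Just above the floor by their higher signal were CX3CL1 at 74.5 and CXCL9 at 77.1.

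CCL5, also called RANTES, attracts T cells, eosinophils and monocytes. It was the only one of 18 CC ligand genes above the floor and lies at chr17:35871491-35880360, one of 10 ligand genes on that chromosome. Its brighter probe set had a signal of 408 in untreated and 418 in treated cells. The other probe set had 331 and 314. The probe sets gave log2 ratios of 0.033 and -0.077, so both lay close to no difference and took opposite signs. The gene's sign was positive on the brighter probe set and negative for the median over both (-0.022).

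CXCL12 is the ligand of CXCR4 and is typically made by stromal cells. Its brighter probe set had signals of 121 and 92.9, a log2 ratio of -0.38 (1.30-fold lower). The other probe set, at 27.9 and 6.84, was under the floor on both arrays. ACKR3, which also binds CXCL12 and scavenges it, had a highest signal of 19.7. The ligand was thus read by 1 of 2 probe sets. On this scale 2999 dim probe sets, up to 2 times the floor, had ratios from -0.75 to 0.50 between the 10th and 90th percentiles. Probe sets under the floor on 1 array entered that range at a bound, so it can be narrower than that of the deposited signals.

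CXCL9, CXCL10 and CXCL11 are induced by interferon and attract T cells and natural killer cells through CXCR3. They lie side by side on chromosome 4, CXCL9 at chr4:76001275-76007509, CXCL10 at chr4:76021118-76023497 and CXCL11 at chr4:76033682-76036070. CXCL10 had signals of 104 and 119, a log2 ratio of 0.19 (1.14-fold higher). CXCL9 had 77.1 and 71.0, a log2 ratio of -0.12, which turned positive under each of the 3 other scalings of the arrays. CXCL11 was under the floor on both of its probe sets, with a highest signal of 22.1. CXCR3 was under it too, with a highest signal of 34.1. The ratios of CXCL9 and CXCL10 both lay within the range of dim probe sets given above.

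CX3CL1, or fractalkine, is anchored in the membrane on a stalk and binds CX3CR1. One of its 2 probe sets was above the floor in untreated cells alone, with signals of 74.5 and 51.7, so the gene was at least 1.08-fold lower. It passed the floor only through the array where it was brighter. The other probe set had 8.01 and 18.0. CX3CR1 had a highest signal of 29.9. The gene lies on chromosome 16 at chr16:57372490-57385044, between CCL22 at chr16:57357909-57366189 and CCL17 at chr16:57396093-57416063.

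CCL17 and CCL22 bind CCR4 and attract regulatory and type 2 helper T cells. None of the 3 genes was above the floor in either culture. CCL17 had signals of 43.3 in untreated and 30.4 in treated cells. CCL22 had 16.1 and 9.84, and CCR4 had 33.8 and 32.8. The highest signal of the poly-A control probe sets, which match bacterial transcripts, was 43.1. Signals in this range have no order here, and a low signal does not show that a transcript is absent.

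A list of 18 chemokines often reported from Hodgkin cells had 14 genes with a probe set of 1 symbol. Of these, 5 were measured and 9 were not, against 69.2% of all named genes. Of the 5, 0 were 2-fold apart, where 3.77% of all measured genes were higher and 5.12% lower, so that a count of 0 among 5 lies near those shares. The measured ones were CCL5, CXCL9, CXCL10, CXCL12 and CX3CL1, whose log2 ratios ran from -0.38 to 0.19, that of CX3CL1 being a bound set by the floor. The 9 others were CCL1, CCL2, CCL4, CCL11, CCL17, CCL18, CCL20, CCL22 and CXCL8. Their highest signals ran from 3.68 for CCL2, a monocyte attractant, to 43.3 for CCL17. CCL20, which binds CCR6, had signals of 9.54 and 4.88. CXCL8, the main neutrophil attractant, had 21.1 and 31.6 on its brighter probe set.

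The other receptors were likewise under the floor on both arrays. CCR8, the receptor for CCL1, had a signal of 61.4 in untreated and 11.2 in treated cells, the widest gap in signal units among the unmeasured probe sets. CCR6 had 15.2 and 14.6, and CCR10, a skin-homing receptor that binds CCL27, had 39.9 and 54.7. CXCR6 had 55.6 and 34.1 on its brighter probe set, and CXCR5, the follicular homing receptor for CXCL13, 13.2 and 25.8. The neutrophil receptors CXCR1 and CXCR2 had highest signals of 9.44 and 5.11. Of the 7 receptor genes on chromosome 3, CCR1 alone was measured. That share is near the 8 of 47 of all members, against 69.2% of all named genes.

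The remaining ligand genes had highest signals between 3.69 for CXCL2 and 54.8 for CCL25. They comprised CCL7, CCL8, CCL16, CCL23, CCL24, CCL25, CCL27, CXCL1, CXCL2, CXCL3, CXCL5, CXCL6, CXCL13, CXCL14 and XCL1. Of 10 ligand genes on chromosome 4, which include the neutrophil-attracting cluster of CXCL1, CXCL2, CXCL3, CXCL5, CXCL6 and CXCL8, CXCL9 and CXCL10 alone were measured. This share too is near the 8 of 47 of all members, against 69.2% of all named genes. Over all 53 probe sets under the floor, the deposited signal was higher in the treated culture for 28 and lower for 25, with a median higher signal of 23.3. Such signals have no order here, and no direction is read from these counts.

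**Figure D3:**
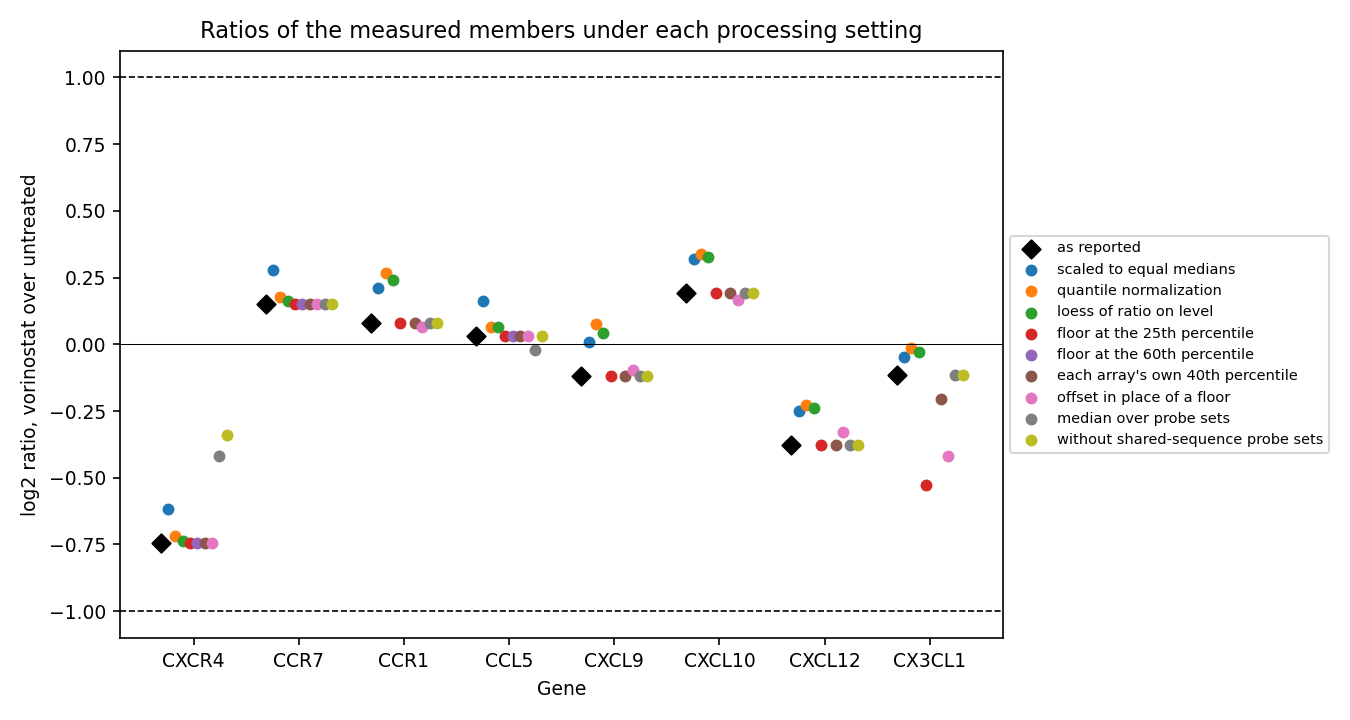
The log2 ratio of vorinostat over untreated for each measured gene under the reported processing (black diamonds) and under each alternative (coloured dots), with dashed lines at 2-fold. CXCR4 lies between -0.74 and -0.34 throughout, CCL5 and CXCL9 have dots on both sides of 0, and no gene reaches a dashed line.

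Ligands and receptors of the same system whose symbols fall outside the name rule were mostly under the floor too. Of a list of 9 such genes 2 were measured, against 69.2% of all named genes. They were PF4, a platelet chemokine, with signals of 69.2 and 75.1, and ACKR2, a scavenger of CC ligands, with 84.2 and 69.5. The untreated PF4 and the treated ACKR2 signal lay just above the floor of 68.9. The only PF4 probe set has a suffix for possible shared sequence. Both genes lay within 2-fold, with log2 ratios of 0.12 for PF4 and -0.28 for ACKR2. Among all measured genes 3.77% passed that size upward and 5.12% downward, so a count of 0 among 2 lies near those shares. The genes PF4V1, PPBP, XCR1, ACKR1, ACKR3, ACKR4 and CCRL2 had highest signals between 2.07 and 19.7. ACKR5 was not on the list but was measured, with signals of 81.3 in untreated and 45.2 in treated cells. Its log2 ratio of -0.24 is a bound, since the treated signal was under the floor.

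Genes that carry the receptors' signals inside the cell were examined beside the members. Of 39 genes listed for receptor signalling and migration, 36 had a probe set of 1 symbol and 29 were measured, beside 69.2% of all named genes. At least 2-fold lower were 3 of the 29, at least 2-fold higher was 1, and 25 lay within 2-fold, against 5.12% lower and 3.77% higher among all measured genes. The median log2 ratio was -0.22, against -0.038 for all.

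TPST2, which sulfates tyrosines that help receptors bind chemokines, had signals of 160 and 475 on its single probe set (2.97-fold higher). RGS19, which speeds the switching off of inhibitory G proteins, had 522 and 233 (2.24-fold lower). Its only probe set has a suffix for possible shared sequence, so RGS19 has no value without such probe sets. GRK2, a kinase that desensitises receptors such as CXCR4, had 1474 and 471 on its brightest probe set (3.13-fold lower), and its other measured probe set had a log2 ratio of -0.06. CDC42, a GTPase of cell polarity, had 3063 and 1210 on its brightest probe set (2.53-fold lower), and its other probe sets had log2 ratios of -0.68, -0.64 and close to 0. The size of the GRK2 and CDC42 differences therefore rested on 1 probe set each, both with a suffix for possible shared sequence. By the median over probe sets both lay within 2-fold, at -0.85 and -0.66.

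GRK5, a kinase of the same family as GRK2, had signals of 184 and 297 on the probe set brightest by its mean over both arrays (1.62-fold higher). Its other probe set had 132 and 364, a log2 ratio of 1.46 (2.76-fold higher). GRK6 had log2 ratios of -0.18 on the brightest of its probe sets and 1.19 on another. RGS14, a regulator of G protein signalling, had -0.80 on its brightest probe set and -1.75 on another.

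Among the others within 2-fold, the inhibitory G protein genes GNAI2 and GNAI3 had log2 ratios of 0.26 and -0.15, and the Rac activator gene DOCK2 had -0.50. RAC2, the Rac GTPase of blood cells, had signals of 12702 and 11233, a log2 ratio of -0.18. DPP4, a protease that trims and inactivates several chemokines, had a log2 ratio of -0.66, from signals of 3999 and 2536 on the brightest of its probe sets. The phosphoinositide 3-kinase gene PIK3CG, which acts downstream of chemokine receptors, had 119 in untreated and 13.5 in treated cells and was at least 1.72-fold lower, since the treated signal was under the floor. On their brightest probe sets, the other measured genes of the list had log2 ratios from -0.80 for PIK3R5 to 0.37 for ARRB1.

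**Figure D4:**
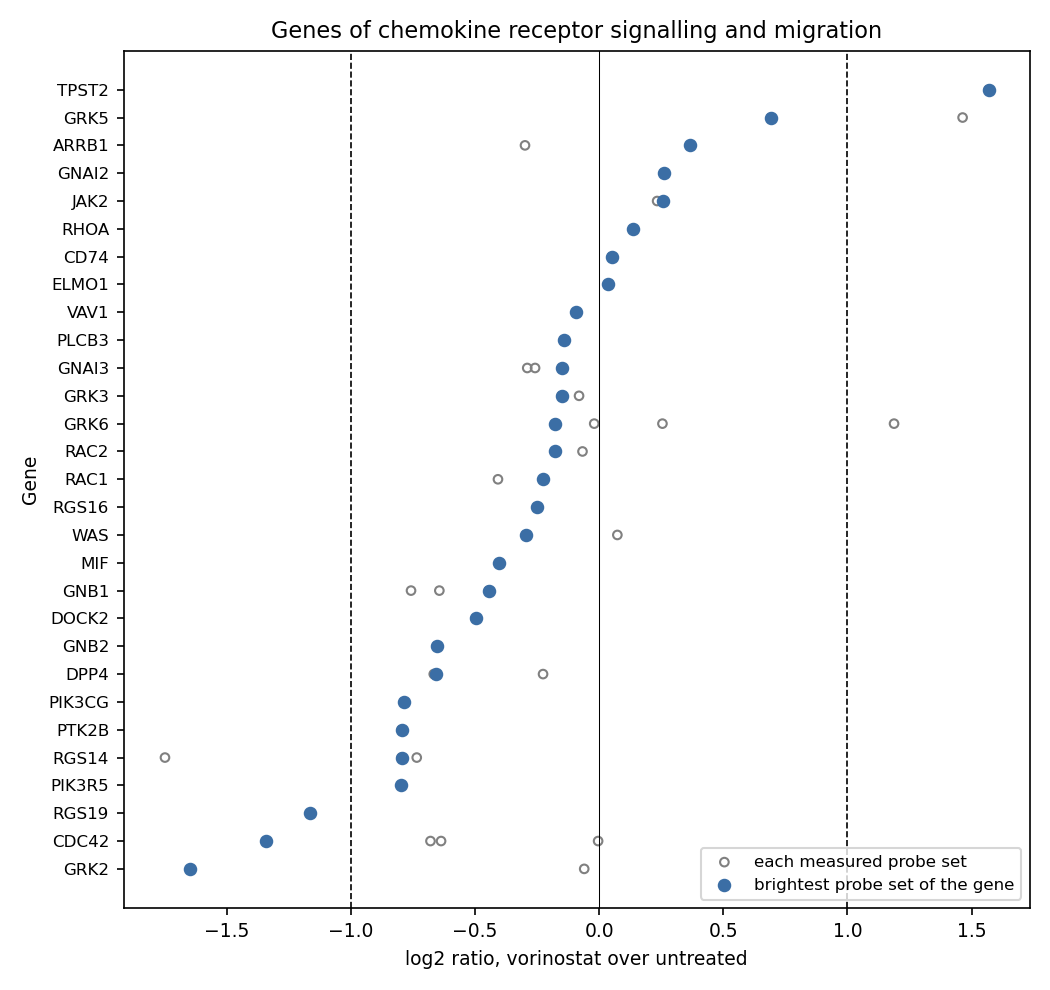
The log2 ratio of vorinostat over untreated for the 29 measured genes of receptor signalling and migration; filled dots give the brightest probe set, open circles each measured probe set, and dashed lines mark 2-fold. TPST2 lies beyond the upper line and RGS19, CDC42 and GRK2 beyond the lower one, with open circles of CDC42 and GRK2 near 0; open circles of GRK5 and GRK6 lie beyond the upper line and 1 of RGS14 beyond the lower one.

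The labelled cell type was checked on marker genes. All 6 Hodgkin cell markers were above the floor, against 69.2% of all named genes. Among them TNFRSF8, which encodes CD30, had signals of 10777 and 3228. FUT4, TRAF1 and FSCN1 were also lower in treated cells, and IRF4 and GATA3 were higher, with log2 ratios of 0.29 and 0.42. Of 7 T-cell markers 5 were above the floor, near the 69.2% of all named genes, with CD3D and CD3G under it. The 5 had a median log2 ratio of -0.80, the value of CD5, which is a bound set by the floor. CD247 was 4.74-fold and CD3E at least 2.01-fold lower in treated cells, and CD2 and CD4 had log2 ratios of -0.54 and -0.19. The B-cell gene PAX5 was 2.46-fold lower on its brighter probe set. The part of these shifts in the ratios of CXCR4 and the other members was not tested. CD14 and LYZ of monocytes and CDH5 and VWF of endothelium were under the floor on both arrays. Of the lists for B cells, monocytes and macrophages, fibroblasts and endothelium, 1 of 4, 1 of 4, 3 of 5 and 1 of 3 genes were above it. Beside PAX5 these were CSF1R of the monocyte and macrophage list (207 and 149) and PECAM1 of endothelium (86.2 and 43.4). Those of fibroblasts were COL1A1 (276 and 273), COL1A2 (48.2 and 97.8) and DCN (111 and 93.9), untreated first. The share of all named genes above the floor was 69.2%. For PECAM1 and each of these fibroblast genes a single probe set passed the floor, and the others were under it on both arrays. The untreated COL1A2 and treated PECAM1 signals were also under it. The fibroblast probe sets that passed have suffixes for possible shared sequence. In RNA from a whole culture, fewer cells that carry a transcript and less of it per cell cannot be told apart. Each array had a trimmed mean signal of 500.2, and 61.2% of non-control probe sets in untreated and 58.8% in treated cells were above the floor.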

How the data were processed

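The authors deposited 1 intensity for each probe set and array, and the submitters' processing notes name MAS5 as the tool. Its version and detection calls are not given in the sources used here. This tool summarises the probes of a set into a linear signal and scales each array by 1 factor, so the ratios depend on that scaling. Symbols came from the platform annotation; RefSeq identifiers matched 47 of 47 genes and changed 0 symbols. Signals under the floor (40th percentile, pooled) were set to it, genes at the floor on both arrays were unmeasured, and each gene was read on its brightest probe set. Brightest means the highest mean log2 signal of both arrays after flooring. With 1 array a group, 2-fold was a rule of size and nothing was tested; the number of arrays limits the precision. The steps were tested on simulated data, with known changes put only into genes well above the floor, so genes near it were not covered. Python 3.11.15 with pandas 2.3.3 was used. Every measured member gene was named, beside its partners and some genes of the lists. The members, lists and rules were chosen with earlier results of these data known. Alternatives varied the scaling, the floor, the choice of probe set and the fold.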

Additional observations from a re-analysis of the deposited data

How the results depend on the processing

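No paired analysis was possible because each group held 1 array, and no array could be left out. Lowering the floor to the 25th percentile (28.4 signal units) left 28 members measured, and raising it to the 60th (228) left 3, CXCR4, CCR7 and CCL5. Members 2-fold lower numbered 1 with the lower floor and 1 with an offset of 16 units instead of any floor, CCR8 in both (at least 2.16-fold, its treated signal being under the lower floor, and 2.84-fold with the offset); of all genes, 6.82% and 5.91% were lower at these settings. At the 1.5-fold threshold 1 was lower, CXCR4, on its brightest probe set alone. Members 2-fold higher numbered 1 with the offset, CCL4 (2.08-fold), against 3.94% of all genes. Over the measured members the median log2 ratio became 0.059 when arrays were scaled to equal medians, 0.075 under quantile normalization and 0.065 under loess. It became 0.078 with the lower floor, 0.033 with the higher floor and 0.032 with the offset. With each array's own 40th percentile as the floor it was -0.104, against -0.051 for all genes. CCR2 entered as a ninth member at that setting and under the 3 scalings. The median of all genes was 0.082, 0.018, 0.0072 and -0.048 at the first 4 of these settings, in place of -0.038. The sign turned for CXCL9 under the 3 scalings and for CCL5 with the median over probe sets; the 6 other measured members kept theirs wherever they were measured.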

Other observations

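Of the 4 probe sets with several symbols that include a chemokine name, 2 were above the floor. One had signals of 118 in untreated and 62.9 in treated cells, and the other had 104 and 82.2. Neither can be given to a single gene. Of all probe sets with 1 symbol, 65.3% were above the floor, and 2 of 4 lies near that share.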
